A study of Mus musculus with 6 samples.

Results

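Lipolysis and lipid droplet genes were examined in the inguinal subcutaneous white adipose tissue (SC-WAT) of Egr1-deficient mice. The 10 genes were chosen by name for their role, by a rule that uses no measured value but with earlier results of these data known: the lipases Pnpla2, Lipe and Mgll, the lipase partners Abhd5 and G0s2, the perilipins Plin1, Plin2, Plin4 and Plin5, and the droplet fusion protein gene Cidec. They are 10 of the 47069 genes with counts, and all 10 passed the filter on low counts that left 17667 genes for testing. Total RNA was sequenced after removal of ribosomal RNA, with 1 library per mouse, in 3 Egr1+/+ (wild-type) and 3 Egr1-/- female mice of 2 weeks of age of the strain C57BL/6 (C57BL/6 J in the study's methods). Egr1 encodes a zinc finger transcription factor, and its germline inactivation, by insertion of LacZ with a frameshift before the DNA-binding domain, affects every cell of the animal. The mice came from crosses of heterozygous parents, and the study states that they came from fewer litters than animals and that 1 Egr1+/+ and 1 Egr1-/- mouse were littermates, so the mice may not be fully independent. No treatment was given, and the question was how the absence of EGR1 changes the fat pad.

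In adipocytes, triglycerides are stored in a lipid droplet whose surface is coated by perilipins. At rest, perilipin 1 holds ABHD5 (CGI-58) away from the triglyceride lipase ATGL, which Pnpla2 encodes. Beta-adrenergic signals, through cAMP and protein kinase A, release ABHD5 and bring hormone-sensitive lipase (Lipe) to the droplet, and monoglyceride lipase (Mgll) completes the breakdown to glycerol and fatty acids. White adipocytes hold a single large droplet, whereas beige and brown adipocytes hold many small ones and burn the released fatty acids.

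Counts on genes summed to between 29661984 and 42357981 per mouse, and mitochondrial genes took 50.0% to 66.3% of them. The 10 genes together held 61045 to 89558 counts per mouse. Egr1, the inactivated gene, had 241 to 711 counts in the Egr1+/+ mice and 57 to 103 in the Egr1-/- mice, in accord with the labels. Counts of the targeted allele do not show whether protein is made. Markers of mature adipocytes were abundant in every library, with a summed level of 7292 to 7993 CPM in Egr1+/+ and 5857 to 6907 CPM in Egr1-/- mice, in accord with the tissue label. CPM stands for counts scaled to a common library size, normalized for composition, so that libraries of different depth can be compared. In a whole fat pad, fewer cells of a type and less RNA per cell cannot be told apart.

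The regions just before the transcription start of the 10 genes were searched for the EGR1 motif GCGNGGGCG on both strands, because EGR1 has been linked to the transcription of Pnpla2. RefSeq gave 14 promoter windows for the 10 genes, and 250 bases before each start site were read. The motif was present in 2 windows, 1 of Lipe and 1 of Mgll, and 4.7% of the 32851 mouse promoter windows of the same length held it. The GC box GGGCGG, which can share up to 5 bases with that motif, was found in 7 windows of 6 of the genes and in 32.74% of all windows. Both sequences consist largely of G and C. The Lipe and Mgll windows with the EGR1 motif held 62.8% and 74.8% G and C, against a median of 52.4% over all windows. The shares of all windows were not matched for base composition. Below are the windows of the 4 genes on which these matches and the later results bear, from RefSeq on GRCm38.p6, 5′ to 3′ on the strand of the gene. Capitals mark the EGR1 motif for Lipe and Mgll, on the reverse strand, and the GC box on either strand for Pnpla2 and Plin5.
Pnpla2, chr7:141454938-141455187, + strand: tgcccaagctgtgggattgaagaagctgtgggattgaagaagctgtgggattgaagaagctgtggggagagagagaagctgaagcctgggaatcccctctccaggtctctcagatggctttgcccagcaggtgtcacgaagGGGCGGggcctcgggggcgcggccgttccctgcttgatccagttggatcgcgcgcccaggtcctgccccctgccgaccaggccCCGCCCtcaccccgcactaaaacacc
Plin5, chr17:56117549-56117798, - strand: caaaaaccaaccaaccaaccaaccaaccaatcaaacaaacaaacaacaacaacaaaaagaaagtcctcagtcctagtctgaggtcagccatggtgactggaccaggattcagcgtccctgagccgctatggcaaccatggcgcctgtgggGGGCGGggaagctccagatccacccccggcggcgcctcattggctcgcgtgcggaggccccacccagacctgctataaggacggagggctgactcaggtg
Lipe, chr7:25395988-25396237, - strand: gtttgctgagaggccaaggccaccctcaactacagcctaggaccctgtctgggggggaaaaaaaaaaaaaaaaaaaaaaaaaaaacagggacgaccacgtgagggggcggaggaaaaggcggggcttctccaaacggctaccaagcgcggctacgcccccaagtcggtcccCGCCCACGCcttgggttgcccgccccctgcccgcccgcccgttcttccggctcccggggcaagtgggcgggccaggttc
Mgll, chr6:88724454-88724703, + strand: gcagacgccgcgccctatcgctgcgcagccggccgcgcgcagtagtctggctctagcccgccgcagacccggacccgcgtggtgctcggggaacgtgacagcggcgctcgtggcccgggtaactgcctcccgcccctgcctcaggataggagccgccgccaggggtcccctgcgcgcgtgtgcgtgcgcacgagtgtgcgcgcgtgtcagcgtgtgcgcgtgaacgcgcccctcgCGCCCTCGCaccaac
The match of Lipe, CGCCCACGC, began 79 bases before the start site and overlapped 1 of the 6 GC boxes of its window. The match of Mgll, CGCCCTCGC, began 15 bases before its start site. Both lie before an internal start site, inside the annotated gene. The Pnpla2 window held 2 GC boxes and no EGR1 motif, and so did a second Plin5 window, 250 bases further into the gene, while the Plin5 window shown had 1 GC box and 2 CCAAT boxes. A match of letters is not a binding site, and a window without one tells nothing about the factor.

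Lipases and their partners came first. Pnpla2 (ENSMUSG00000025509.15) lies on GRCm38 chromosome 7, 141455198 to 141460743, and encodes ATGL, which removes the first fatty acid from a triglyceride. It stood at 205, 232 and 166 CPM in the Egr1+/+ mice and at 247, 216 and 266 CPM in the Egr1-/- mice. Of the Egr1-/- mice, 2 were above every Egr1+/+ mouse, but the third fell inside the Egr1+/+ range. The mean was 201 ± 33.2 CPM in Egr1+/+ and 243 ± 25.48 CPM in Egr1-/- mice (SD, n = 3 in each). The log2 fold change was 0.27 (95% interval -0.07 to 0.62), with an adjusted p of 0.586 in edgeR after Benjamini-Hochberg correction over all genes tested. That interval holds anything from a small decrease to a 1.54-fold increase.

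Abhd5 (ENSMUSG00000032540.15; chromosome 9, 122351608 to 122381524) encodes the co-activator of ATGL. Its levels were 61.1, 63.0 and 51.7 CPM in Egr1+/+ SC-WAT and 66.5, 48.8 and 58.6 CPM in Egr1-/- SC-WAT. The genotypes overlapped, with the highest and the lowest value both among the Egr1-/- mice, and the log2 fold change was -0.02 (95% interval -0.34 to 0.31). G0s2 (ENSMUSG00000009633.3; chromosome 1, 193272161 to 193273217) encodes the inhibitor of ATGL. It was the most variable of the 5 genes of this group, with 127, 87.2 and 148 CPM against 156, 103 and 167 CPM, or a coefficient of variation of 25.49% and 24.2%. Its log2 fold change of 0.23 had a 95% interval from -0.28 to 0.75, so changes within that interval could not be told from 0 at this spread.

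Lipe (ENSMUSG00000003123.15; chromosome 7, 25379527 to 25398710), the gene of hormone-sensitive lipase, which acts mainly on diglycerides, separated the genotypes. It stood at 195, 211 and 214 CPM in the Egr1+/+ mice and at 281, 226 and 287 CPM in the Egr1-/- mice. Every Egr1-/- mouse was above every Egr1+/+ mouse, the second one only narrowly. The difference was 0.36 on the log2 scale (standard error 0.133), a 1.28-fold higher level with a 95% interval from 1.04 to 1.58. It did not pass the threshold of 0.05, with an adjusted p of 0.378 in edgeR and 0.207 in DESeq2, and an exact two-sided permutation test gave p = 0.1, the smallest that 3 mice against 3 allow. The unadjusted p of the edgeR fit was 0.0251, from the model fitted across all genes. Mgll (ENSMUSG00000033174.17; chromosome 6, 88724412 to 88828360) ranged from 188 to 256 CPM in Egr1+/+ and from 192 to 272 CPM in Egr1-/- mice, and its log2 fold change was 0.11 (95% interval -0.27 to 0.49).

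Among the coat proteins, Plin5 (ENSMUSG00000011305.11; chromosome 17, 56111601 to 56117596) stood apart. Perilipin 5 coats droplets in tissues that oxidize fat, such as heart, muscle and brown fat, and ties them to mitochondria. Plin5 was at 19.4, 17.6 and 17.8 CPM in the Egr1+/+ mice and at 32.5, 28.7 and 43.9 CPM in the Egr1-/- mice. The 3 Egr1+/+ mice lay within a coefficient of variation of 5.16%, and the lowest Egr1-/- mouse was well above them. In counts, these levels were 530 to 768 reads in Egr1+/+ and 889 to 1357 in Egr1-/- libraries. The level was 1.92-fold that of Egr1+/+ mice, with a 95% interval from 1.49 to 2.46, and edgeR ranked the gene at place 28 of 17667 by p. Its adjusted p was 0.151 in edgeR, past no threshold, and 0.000139 in DESeq2, where it passed. The study, which used DESeq2, also listed Plin5 as upregulated and reported a higher Plin5 level by RT-qPCR. On the CPM values, the exact two-sided permutation test gave p = 0.1, its minimum.

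The other droplet coat genes overlapped between genotypes. Plin1 (ENSMUSG00000030546.14; chromosome 7, 79720218 to 79732903), the main coat protein of the white adipocyte droplet, ranged from 272 to 432 CPM in Egr1+/+ and from 346 to 415 CPM in Egr1-/- mice. Plin2 (ENSMUSG00000028494.12; chromosome 4, 86648386 to 86670060), which coats small droplets in most cell types, was at 72.0, 85.2 and 71.3 CPM against 82.9, 77.9 and 119 CPM. Its highest value belonged to the Egr1-/- mouse that was also highest for Plin5, replicate 3, and the remaining pair lay within the Egr1+/+ range. Plin4 (ENSMUSG00000002831.13; chromosome 17, 56100591 to 56109803), a perilipin abundant in white fat, had means of 535 ± 81.5 and 536 ± 21.6 CPM (SD, n = 3 in each). Cidec (ENSMUSG00000030278.11; chromosome 6, 113424634 to 113435760), which transfers lipid from small to large droplets, ranged from 231 to 341 CPM in Egr1+/+ and from 219 to 259 CPM in Egr1-/- mice. For Plin1, Plin2, Plin4 and Cidec the log2 fold changes were 0.11, 0.29, 0.0012 and -0.14, and the adjusted p in edgeR was at least 0.603. With intervals from -0.53 at the low end for Cidec to 0.68 at the high end for Plin2, a difference of up to about that size could not be seen in these mice.

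**Figure D1:**
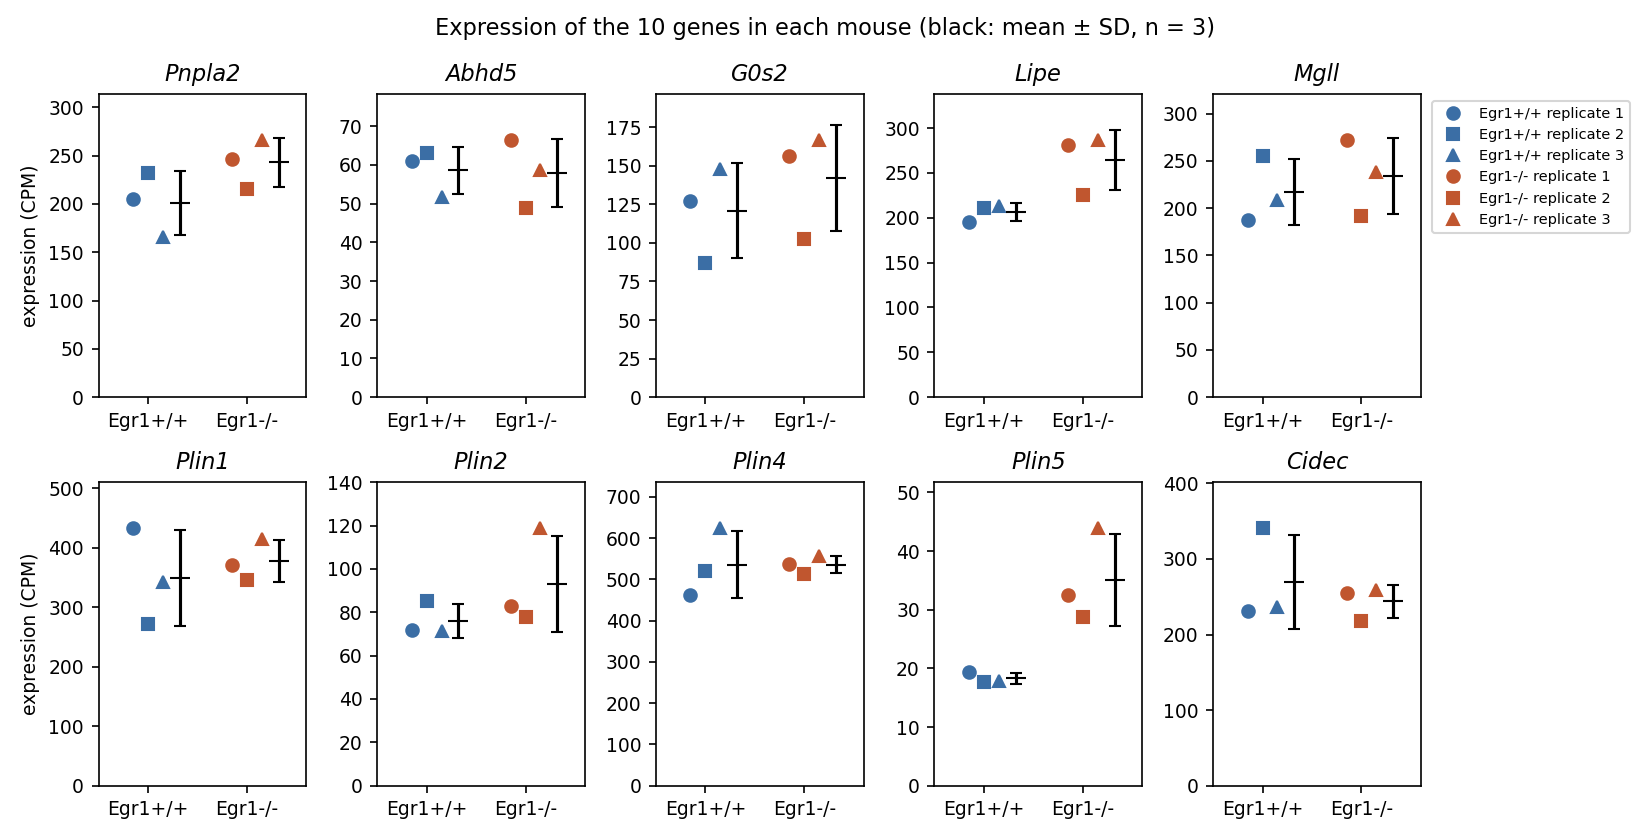
Expression of the 10 genes in each mouse, in CPM on linear axes from 0; circles, squares and triangles are replicates 1, 2 and 3, and black marks show the mean ± SD of 3 mice. Plin5 and Lipe are the panels in which all Egr1-/- mice sit above all Egr1+/+ mice, from 28.7 against at most 19.4 CPM and from 226 against at most 214 CPM.

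Over the 10 genes, 0 passed the adjusted threshold in edgeR, as did 0.017% of all genes tested, and 2 had an unadjusted p under 0.05, both higher in Egr1-/- mice. That count of 2 fell to 1, by the loss of Lipe, without Egr1+/+ replicate 1 or 3 or without Egr1-/- replicate 1 or 3, and rose to 3, with Pnpla2, without Egr1+/+ replicate 2. For the count of 2 in all mice, the background was 5.06% of genes higher and 5.6% lower at the same p. The share of all genes was not taken with a mouse left out. In DESeq2, 1 of the 10 passed upwards and 0 downwards, against 0.865% and 1.33% of the genes with an adjusted p. The genotypes did not overlap in 2 of the 10 genes, both higher in Egr1-/- mice, and 0 lower, where 8.15% of all genes separated upwards and 8.1% downwards. The median log2 fold change was 0.17 for the 10 genes and 0.0011 for all genes tested. It was 0.089 without Egr1-/- replicate 3, 0.30 without Egr1-/- replicate 2 and 0.30 after scaling to adipocyte markers. Of the 10 estimates, 8 were positive and 2, those of Abhd5 and Cidec, negative.

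**Figure D2:**
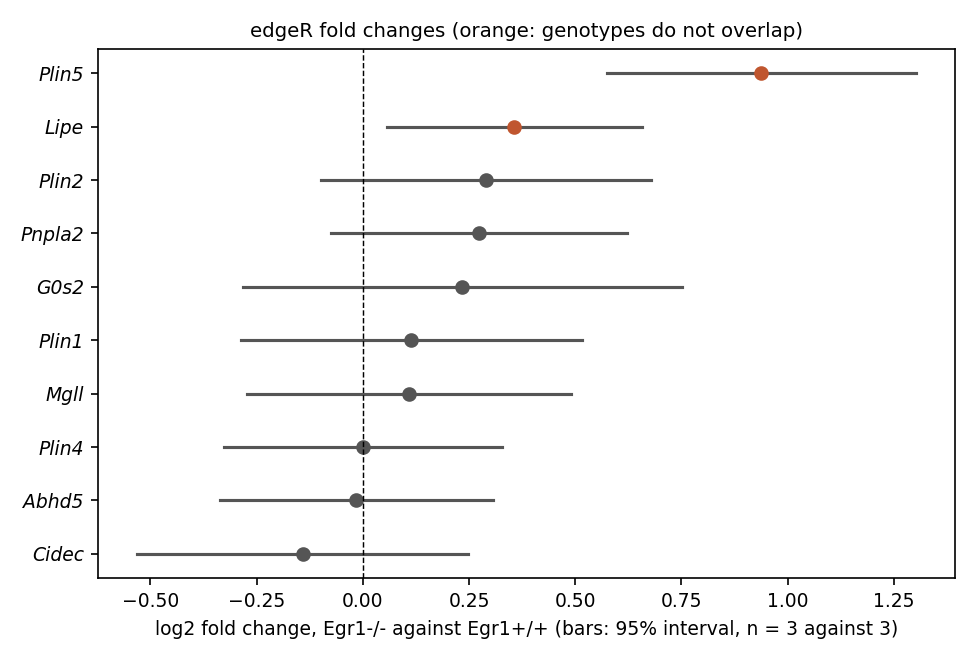
Log2 fold change of each gene between Egr1-/- and Egr1+/+ mice from edgeR, with 95% intervals (n = 3 mice against 3); orange points mark genes whose genotypes do not overlap. The interval of Plin5, 0.58 to 1.30, and that of Lipe, 0.06 to 0.66, lie above 0, and the other 8 include it.

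Ranked by level per kilobase of exon, the 10 genes kept much of their order. In Egr1+/+ mice Cidec (145 CPM per kb) and G0s2 (139 CPM per kb) were at the top, followed by Plin4 (92.6 CPM per kb), Plin1 (75.0 CPM per kb) and Pnpla2 (66.5 CPM per kb). Over mice, the ranges of neighbours among these 5 overlapped. Apart from them, Mgll (42.8 CPM per kb), Lipe (35.1 CPM per kb) and Plin2 (21.7 CPM per kb) then followed without overlap, and Abhd5 (9.84 CPM per kb) and Plin5 (8.76 CPM per kb) shared the bottom with overlapping ranges. In Egr1-/- mice G0s2 (163 CPM per kb) and Cidec (131 CPM per kb) were again at the top. There, Plin5 (16.8 CPM per kb; 13.8 to 21.0) stood above Abhd5 (9.73 CPM per kb; 8.20 to 11.2) with no overlap. The ranges of Lipe (44.9 CPM per kb) and Mgll (46.2 CPM per kb) overlapped there, and did not in Egr1+/+ mice.

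Ratios of counts within a library need no scaling between mice, and 10 of them were compared. Plin5 relative to Plin1 was 0.0448, 0.0649 and 0.0522 in Egr1+/+ mice, against 0.0876, 0.0829 and 0.106 in Egr1-/- mice. All 3 Egr1-/- values were above the Egr1+/+ ones, a difference of 0.78 on the log2 scale. Plin5 relative to Pnpla2 went the same way, from 0.0762 to 0.107 in Egr1+/+ and from 0.132 to 0.165 in Egr1-/- mice. The co-activator Abhd5 relative to its lipase Pnpla2 was 0.297, 0.272 and 0.312 in Egr1+/+ and 0.269, 0.226 and 0.220 in Egr1-/- mice. Here the Egr1-/- values were all lower, the first of them by little, and the difference was -0.30 on the log2 scale. These 3 ratios reached p = 0.1 in an exact two-sided permutation test, the minimum possible, and an adjusted p of 0.333 over the 10 ratios. They are not separate results, since Plin5 and Pnpla2 each recur among them. The share of other gene pairs that separate the genotypes was not taken. Of the 10 ratios, the other 7 overlapped between genotypes, although 6 separated without Egr1+/+ replicate 1 and 5 without Egr1-/- replicate 1. Leaving out a mouse can add separations but cannot undo one. Among the 7 that overlapped in all mice was the inhibitor G0s2 relative to Pnpla2, which was 0.376 to 0.891 in Egr1+/+ and 0.476 to 0.634 in Egr1-/- mice.

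**Figure D3:**
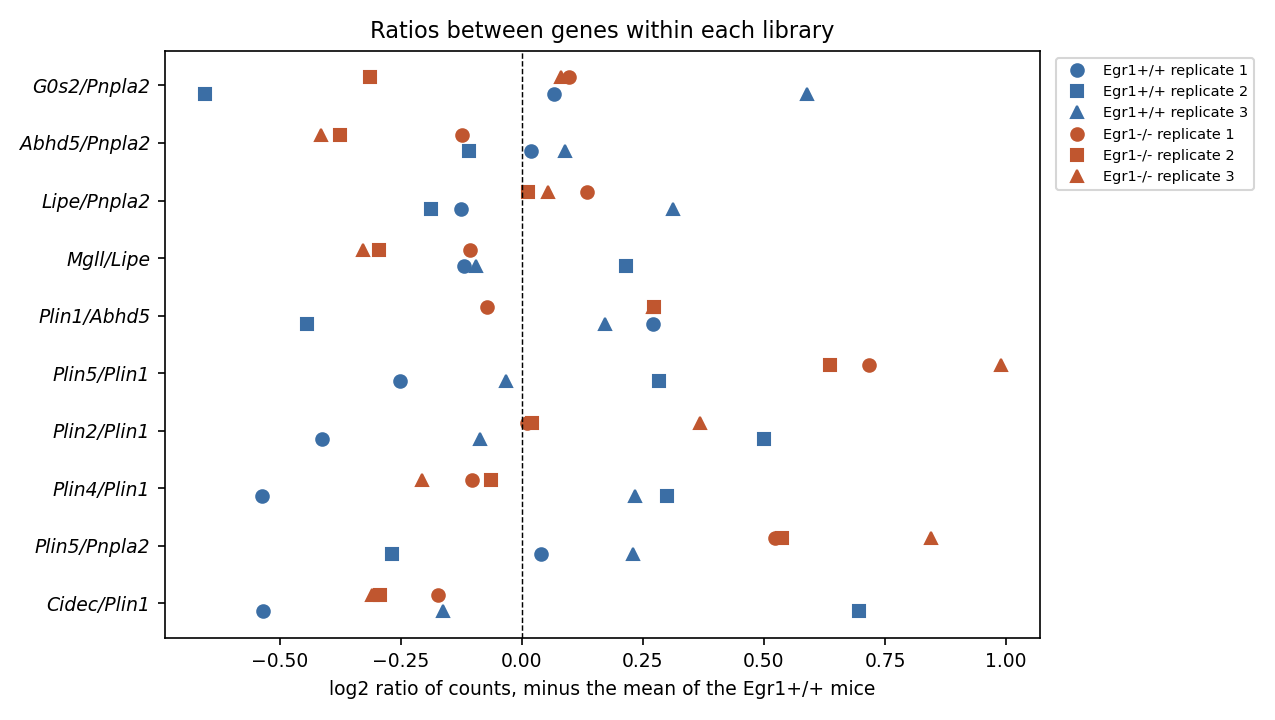
Log2 ratio of counts of pairs of the 10 genes within each library, set to 0 at the mean of the Egr1+/+ mice; blue symbols are Egr1+/+ and orange symbols Egr1-/- mice, by replicate. Plin5 over Plin1 and Plin5 over Pnpla2 lie wholly to the right in Egr1-/- mice, by 0.78 and 0.63 on average, and Abhd5 over Pnpla2 lies wholly to the left, by -0.30.

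Within the perilipin family, counted per kilobase and with Plin3 included, Plin5 made up 4.42%, 4.51% and 3.92% of the transcripts in Egr1+/+ mice, against 7.13%, 6.70% and 8.44% in Egr1-/- mice. The share was higher in all 3 Egr1-/- mice (4.29% ± 0.318 against 7.42% ± 0.912; SD, n = 3 in each; exact two-sided permutation test, p = 0.1, the smallest possible). Plin4 and Plin1 were the largest shares in both genotypes, with means of 45.3% and 36.4% in Egr1+/+ and 41.5% and 36.2% in Egr1-/- mice. The shares of Plin1, Plin2, Plin3 and Plin4 overlapped between genotypes. Plin3, which encodes the perilipin of small nascent droplets, had 3.34% of the family in Egr1+/+ and 3.14% in Egr1-/- mice, and its own log2 fold change was 0.05 (95% interval -0.28 to 0.38). Plin4 and Plin5 are neighbours on chromosome 17, on the same strand, 1797 bases apart. Their fold changes were thus 0.0012 and 0.94 on the log2 scale over adjacent genes.

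**Figure D4:**
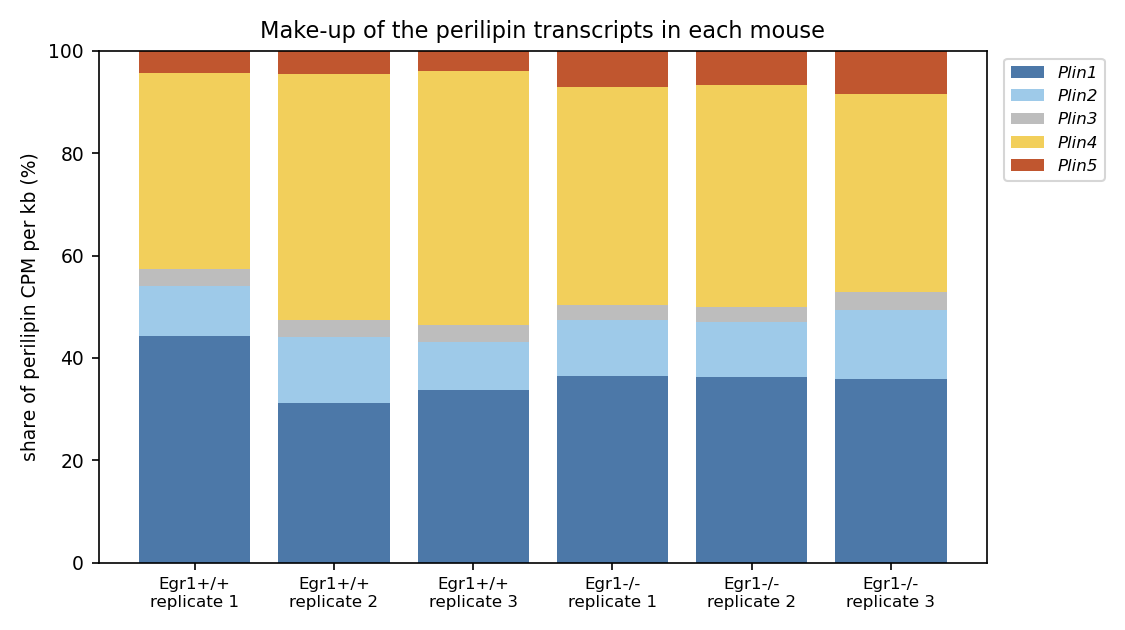
Share of each perilipin in the summed CPM per kb of the 5 perilipin genes, in percent, with 1 stacked bar per mouse. The Plin5 segment spans 3.92% to 4.51% in the Egr1+/+ mice and 6.70% to 8.44% in the Egr1-/- mice.

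The Egr1-/- mice themselves did not behave alike. In all 10 genes, Egr1-/- replicate 2 was the lowest of the 3 Egr1-/- mice, whereas it was lowest in 36.4% of all genes tested. In 8 of the 10, replicate 3 was highest and replicate 1 in between, an order seen in 17.8% of all genes. Replicate 2 also had the lowest summed level of mature adipocyte markers of all mice, 5857 CPM, and the highest of lymphocyte markers, 211 CPM against 78.0 to 146 CPM in the others of its genotype. When levels were set relative to mature adipocyte markers, it was lowest in 5 of the 10 genes, and the share over all genes was not taken on that scale. The reason for its low levels was not tested. Without that mouse, the log2 fold changes of Lipe and Plin5 were 0.46 and 1.07, against 0.36 and 0.94 with it.

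Markers of some other cells differed between genotypes as well. All 9 tested markers of brown or beige adipocytes had an unadjusted p under 0.05 and higher levels in Egr1-/- mice, with a summed level of 559 to 711 CPM in Egr1+/+ and 976 to 1621 CPM in Egr1-/- mice. Their order over the Egr1-/- mice, replicate 3 first and replicate 2 last, was that of Plin5 in 8 of the 9. It was also the order of 8 of the 10 genes, Plin4 and Cidec among them, and of 17.8% of all genes tested. The part of the brown or beige markers in the Plin5 and Lipe results was not tested. Mature adipocyte markers had a median log2 fold change of -0.15 over 10 genes, with 1 higher and 4 lower at an unadjusted p under 0.05, and those of progenitors and fibroblasts one of -0.62 over 9 genes, of which 8 had an unadjusted p under 0.05 downwards. Macrophage markers (8 genes) had a median of -0.50, with 0 higher and 5 lower at that p. Lymphocyte markers (8 genes) had a median of 0.45, with 1 higher and 0 lower, and none separated the genotypes. Their summed level was 99.8 to 115 CPM in Egr1+/+ mice and 78.0, 211 and 146 CPM in Egr1-/- mice. Endothelial markers (6 genes) had a median of -0.01, with 0 higher and 1 lower. Over all genes tested, 5.06% were higher and 5.6% lower at that p. Skeletal muscle, another tissue that expresses Plin5, left marker levels that varied from 514 to 5782 CPM in Egr1+/+ and from 283 to 6058 CPM in Egr1-/- mice, with 0 of 13 genes at an unadjusted p under 0.05 in edgeR. The mouse with the lowest muscle signal, Egr1-/- replicate 1, had 32.5 CPM of Plin5. The one with the highest, Egr1-/- replicate 3, had 43.9 CPM, the highest Plin5 level of all mice. Of the 13 muscle genes, 5 had positive and 8 negative log2 fold changes, from -1.36 for Actn3 to 2.40 for Myh7. With the mean of these markers as a covariate, the log2 fold change of Plin5 was 0.95. Without Egr1-/- replicate 3 it was 0.75. The part of muscle in the Plin5 result was not tested. Mammary epithelial markers summed to at most 11.8 CPM.

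Relative to mature adipocyte markers, a list with genes at an unadjusted p under 0.05 in both directions, all gene levels shift upwards in Egr1-/- mice, by 0.13 on the log2 scale at the median of all genes tested. On that scale Plin5, Lipe, Plin2 and Pnpla2 had log2 fold changes of 1.06, 0.48, 0.41 and 0.39, and each had an unadjusted p under 0.05 in edgeR. The 5.06% of all genes higher at that p was measured without this scaling, so it is not a background for these 4. None of these 4 passed after adjustment, the lowest adjusted p being 0.0665 for Plin5. The sign of Abhd5 turned to 0.10.

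The lipolytic signal upstream of the lipases was followed in 18 genes, from adrenergic receptors to protein kinase A. The background for every list here was taken over all genes tested with all 6 mice, not with a mouse left out. It was 5.06% higher and 5.6% lower at an unadjusted p under 0.05. Without overlap it was 8.15% higher and 8.1% lower, and in DESeq2 0.865% passed upwards and 1.33% downwards. Of the 18 genes, 4 were higher and 1 lower in Egr1-/- mice at an unadjusted p under 0.05, with a median log2 fold change of 0.17. None passed after adjustment in edgeR, while 1 did in DESeq2. The 5 genes under 0.05 became 3 without Egr1+/+ replicate 3 and 2 without Egr1-/- replicate 3, and the median became 0.066 without Egr1+/+ replicate 1. Gnas, the stimulatory G protein that couples beta-adrenergic receptors to cAMP, was that gene: it stood at 405, 326 and 341 CPM in Egr1+/+ and at 553, 418 and 566 CPM in Egr1-/- mice, with no overlap (log2 fold change 0.52; adjusted p = 0.0399 in DESeq2 and 0.295 in edgeR). Adora1, an adenosine receptor that inhibits lipolysis, and Prkaca, a catalytic subunit of protein kinase A, were likewise higher without overlap, by 0.49 and 0.39 on the log2 scale. The 3 genes of lowest p in the list thus included members with opposite effects on the pathway. Adrb3, the adrenergic receptor that drives lipolysis in rodent fat, had means of 14.7 ± 4.47 and 17.9 ± 3.69 CPM (SD, n = 3), and its genotypes overlapped.

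Of 12 other lipases and lipase modulators, 4 were higher and 1 lower at an unadjusted p under 0.05, and 1 in each direction passed in DESeq2. Without Egr1-/- replicate 3, these 5 became 3. Pnpla3, a lipid droplet enzyme close to ATGL in sequence, was at 68.7, 39.6 and 36.6 CPM in Egr1+/+ and at 104, 90.0 and 92.0 CPM in Egr1-/- mice. All Egr1-/- mice were higher, by 0.98 on the log2 scale (adjusted p = 0.198 in edgeR and 0.00058 in DESeq2). Ces1f, a carboxylesterase from a cluster of similar genes among which reads could be split, was at 42.1, 55.6 and 40.0 CPM against 27.1, 29.0 and 27.3 CPM. It was lower in all Egr1-/- mice, by 0.72 on the log2 scale (adjusted p = 0.160 in edgeR and 0.00214 in DESeq2). Ddhd2, a triglyceride hydrolase, had a log2 fold change of 0.36, with no overlap. Hilpda, a second inhibitor of ATGL, was low in both genotypes (3.08 ± 0.408 and 2.48 ± 0.187 CPM; SD, n = 3) and did not overlap, but had an adjusted p of 0.653 in edgeR.

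Genes of triglyceride synthesis, the opposite process, had the highest median of the 4 lists, 0.41 over the 15 of 16 genes tested. At an unadjusted p under 0.05, 7 were higher and 0 lower, 0 passed after adjustment in edgeR and 1 did in DESeq2. The 7 became 4 without Egr1+/+ replicate 3 or Egr1-/- replicate 1, and 3 without Egr1-/- replicate 3. Dgat2, which adds the last fatty acid, was at 222, 133 and 130 CPM in the Egr1+/+ mice and at 258, 241 and 325 CPM in the Egr1-/- mice. The genotypes did not overlap, although the highest Egr1+/+ mouse came near the lowest Egr1-/- one (log2 fold change 0.77; adjusted p = 0.0114 in DESeq2 and 0.269 in edgeR). Its partner enzyme Dgat1 and the acyltransferase Agpat1 were also higher without overlap, by 0.49 and 0.42 on the log2 scale.

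Other lipid droplet proteins centred on 0, with a median log2 fold change of -0.03 over 19 genes. At an unadjusted p under 0.05, 3 were higher and 1 lower, with 1 past the threshold in DESeq2. These 4 became 1 without Egr1+/+ replicate 1 or 3, and 2 without Egr1-/- replicate 1 or 3. The gene past the threshold was Cidea, the relative of Cidec found in droplets of brown and beige adipocytes, which also counts among the brown markers above. It stood at 141, 106 and 88.7 CPM in Egr1+/+ and at 205, 168 and 286 CPM in Egr1-/- mice, with no overlap, whereas Cidec had a log2 fold change of -0.14 and overlapping genotypes. Bscl2 (seipin) and Fitm2, which act in droplet formation at the endoplasmic reticulum, had log2 fold changes of 0.35 and 0.37, the former without overlap.

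**Figure D5:**
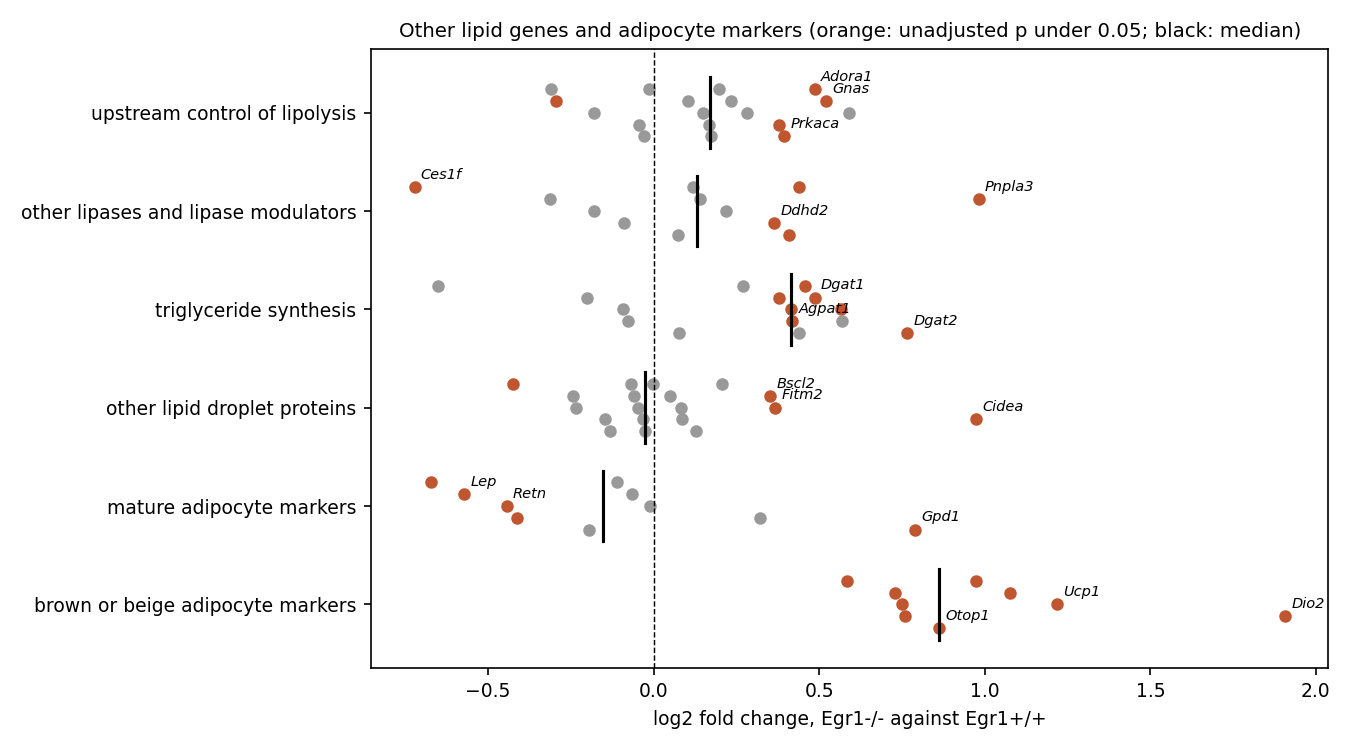
Log2 fold change between Egr1-/- and Egr1+/+ mice of the genes in 4 lists of lipid genes and 2 lists of adipocyte markers, 1 point per tested gene; orange points have an unadjusted p under 0.05 in edgeR, black lines are medians, and the names are the 3 genes of lowest p per list. Triglyceride synthesis (median 0.41) lies to the right of the other lipid droplet proteins (median -0.03), and the brown or beige markers (median 0.86) lie wholly above 0.

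Some of the 10 genes overlap others in the annotation. Exons of Abhd5, Lipe and Mgll overlap antisense genes, and those of Plin4 overlap Hdgfl2 on the opposite strand. The antisense partners held 15 to 26 counts for Abhd5, 41 to 86 for Lipe and 40 to 84 for Mgll, and Hdgfl2 had 308 to 603. The strand setting of the counting is not given in the sources used here, and without one, reads of a shared exon cannot be assigned to either gene. Among the annotated genes that are also in the count data, none overlapped Pnpla2, Plin1, Plin2, Plin5 or Cidec.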

How the data were processed

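Inguinal fat pad RNA of 6 female mice was sequenced by the study with a strand-specific kit after ribosomal RNA depletion. Per the submitters' processing notes, TopHat2, Bowtie2 and featureCounts were used. The authors deposited unnormalized read counts for each gene and mouse. The strand setting of featureCounts is not given in the sources used here. Identifiers were named through GENCODE M21 on GRCm38 (46574 of 47069 genes). Mice were grouped by the genotype in their labels, and no mouse was left out. Libraries of 1 genotype differed by more than counting noise, with a chi-square per degree of freedom of 34.4 or more.

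Genotypes were compared with the quasi-likelihood test of edgeR 4.0.16 in R 4.3.3, with TMM scaling, filterByExpr and Benjamini-Hochberg adjustment over the 17667 genes tested, at a threshold of 0.05. Alternatives were DESeq2 1.42.0, limma-voom (limma 3.58.1), other scalings, no filter, a replicate block, leaving out each mouse and, added after the data were seen, a skeletal muscle covariate. The main edgeR fit and DESeq2 were run on simulated data with planted changes, and the other alternatives were not. The share of planted changes recovered is not given here. DESeq2 gave an adjusted p for 15263 genes. Single values and ratios were compared by exact two-sided permutation tests, which cannot go below p = 0.1 with 3 against 3. Lists were described by counts and medians. The 10 genes and the lists were chosen with earlier results of these data known. Named genes of the other lists were the 3 of lowest p in each, plus Cidea, Plin3, Hilpda, Dgat1, Dgat2 and Adrb3 for their roles. Promoter sequences were those of RefSeq for GRCm38.p6.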

Additional observations from a re-analysis of the deposited data

How the results depend on the processing

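With 3 mice per genotype, differences below about 0.3 to 0.5 on the log2 scale lay within the intervals of most of the 10 genes. The number past the adjusted threshold, 0, became 1 (Plin5) in DESeq2 and 1 without the filter on low counts. The number at an unadjusted p under 0.05, 2, became 4 after scaling to adipocyte markers, a scale on which the median of all genes is 0.13. The share of all genes at that p was not taken on it. With each mouse left out, the number was 1 to 3. It was 1 without Egr1+/+ replicate 1, Egr1+/+ replicate 3, Egr1-/- replicate 1 or Egr1-/- replicate 3, each time by the loss of Lipe, and 3 without Egr1+/+ replicate 2, with Pnpla2 added.

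Plin5 kept its sign in all alternatives, 0.75 to 1.07 with a mouse left out (adjusted p 0.0618 to 0.567 in edgeR). Other estimates kept their sign but moved with a mouse left out, over 0.15 to 0.39 for Pnpla2, 0.047 to 0.42 for G0s2 and 0.081 to 0.41 for Plin2. Some smaller estimates changed sign. Abhd5 became 0.10 after adipocyte scaling and ranged from -0.12 to 0.098 with a mouse left out. The ranges were -0.012 to 0.24 for Mgll, -0.036 to 0.28 for Plin1, -0.11 to 0.12 for Plin4 and -0.26 to 0.065 for Cidec. Plin4 was also -0.00088 with RLE size factors, -0.0023 with upper-quartile scaling and -0.0047 with the muscle covariate. Their causes were not tested. After adipocyte scaling, the median of the upstream list became 0.31 and that of other droplet proteins 0.10, beside an all-gene shift of 0.13. With a mouse left out they ranged from 0.066 to 0.21 and from -0.064 to 0.094. Ratios that separated the genotypes, 3, numbered 3 to 6 with a mouse left out, with 6 without Egr1+/+ replicate 1 and 5 without Egr1-/- replicate 1. Leaving out a mouse cannot undo a separation and makes a new one easier. That number could therefore only stay or rise, and it does not measure how stable the 3 are.

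Same-numbered mice did not deviate together (correlations -0.0888, 0.106 and -0.126 across 17667 genes), so the numbers were not taken as pairs. With the replicate block, 0 of the 10 passed after adjustment, 2 had an unadjusted p under 0.05, and Plin5 was 0.92 (adjusted p = 0.211 in edgeR).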
